A study of Mus musculus with 6 samples.

Results

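The transcripts described here encode splicing factors and the kinases that act on them. They comprise the heterogeneous nuclear ribonucleoproteins (hnRNPs, with Raly), the serine/arginine-rich (SR) proteins, the proteins of small nuclear ribonucleoprotein particles (snRNPs), the SF3A and SF3B complexes and the Clk kinases. Members were chosen by gene symbol and not by any measured value, as every probe set of the array table whose only annotated symbol belongs to these families. That gave 46 of 8251 genes named by such probe sets, measured by 64 of 12488 probe sets: 5 probe sets for Clk, 16 for SR proteins, 23 for hnRNPs, 10 for snRNP proteins and 10 for SF3. A further 7 probe sets carry a matching symbol together with other symbols and are not members.

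RNA came from adrenal glands of male mice aged 12 weeks, from the hypertensive strain BPH and the hypotensive strain BPL, with 3 Affymetrix arrays per strain. The labels name no treatment and no engineered allele in either strain. They report 3 mice per strain without saying whether an array stands for 1 mouse. The p-values therefore cover only the spread among these arrays, which may be technical in part. The question is which adrenal transcripts distinguish a strain with high blood pressure from one with low blood pressure.

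Splicing removes introns from a pre-mRNA on the spliceosome, which is assembled from snRNPs. SF3A and SF3B belong to the U2 snRNP and help it hold the branch site of the intron. SR proteins mostly promote the use of an exon, many hnRNPs oppose it, and Clk kinases phosphorylate SR proteins and thereby release them from nuclear speckles. Transcripts of several of these genes are themselves spliced into unproductive forms, so a probe set can report a form that makes no protein.

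Of the 64 probe sets, 58 were bright enough to be tested, and every one of the 46 genes had at least 1 among them. The 6 untested probe sets (of Srsf1, with 2, and of Hnrnpab, Hnrnpdl, Hnrnpu and Snrpb, with 1 each) had signals between 15.0 and 723 on the 6 arrays. Signals are the deposited linear intensities after scaling each array to a common median, and differences are on the log2(signal + 203) scale as BPH minus BPL, which understates changes of dim probe sets. A probe set is called where the limma p, adjusted over all 7453 tested probe sets by Benjamini-Hochberg, is under 0.05. Errors of differences are standard errors of that model, and errors of signals are SD over 3 arrays.

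In BPH adrenals 5 member probe sets were higher by this test, those of Clk1, Clk4, Raly, Hnrnph2 and Hnrnph3, and none of the other 53 was called. The 5 calls are 8.62% of the tested members, where 3.18% of all tested probe sets were called higher. For lower signals limma made 0 calls among members (2 at an unadjusted p under 0.05, against 6.4% of all tested probe sets), where 0.926% of all tested probe sets were called lower. The median log2 difference was 0.26 over members and 0.08 over all tested probe sets, and 46 of 58 members (79.3%) had a positive difference against 60.5% of all. The authors' own scaling moved the median of all tested probe sets from 0.08 to -0.02 and that of members to 0.15, so the distance between both medians was 0.18 and 0.17. All 3 BPH arrays lay above all 3 BPL arrays for 23 members (39.7%), against 19.7% of all tested probe sets, and below them for 2, against 7.97%. No list test was made, and more or less RNA per cell cannot be told apart from more or fewer cells of a type in whole glands.

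The calls did not hold when some single arrays were left out, but calls over the whole table fell as well. Leaving out BPL replicate 1, BPL replicate 2, BPH replicate 1 or BPH replicate 2 left 0 members called by limma. At an unadjusted p under 0.05, 14 to 16 of 58 members were higher. The share of all tested probe sets at that threshold was not counted for these fits. With all 6 arrays it was 14.2%, and 20 of 58 members were higher. Over all 7453 tested probe sets these fits called 101 to 158, where the fit on all arrays called 306. Without BPH replicate 3, 3 members were called (Clk1, Clk4 and Hnrnph3), with 184 calls over the whole table. Without BPL replicate 3, 6 members were called higher and 1 lower, with 375 calls over the whole table.

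**Figure D1:**
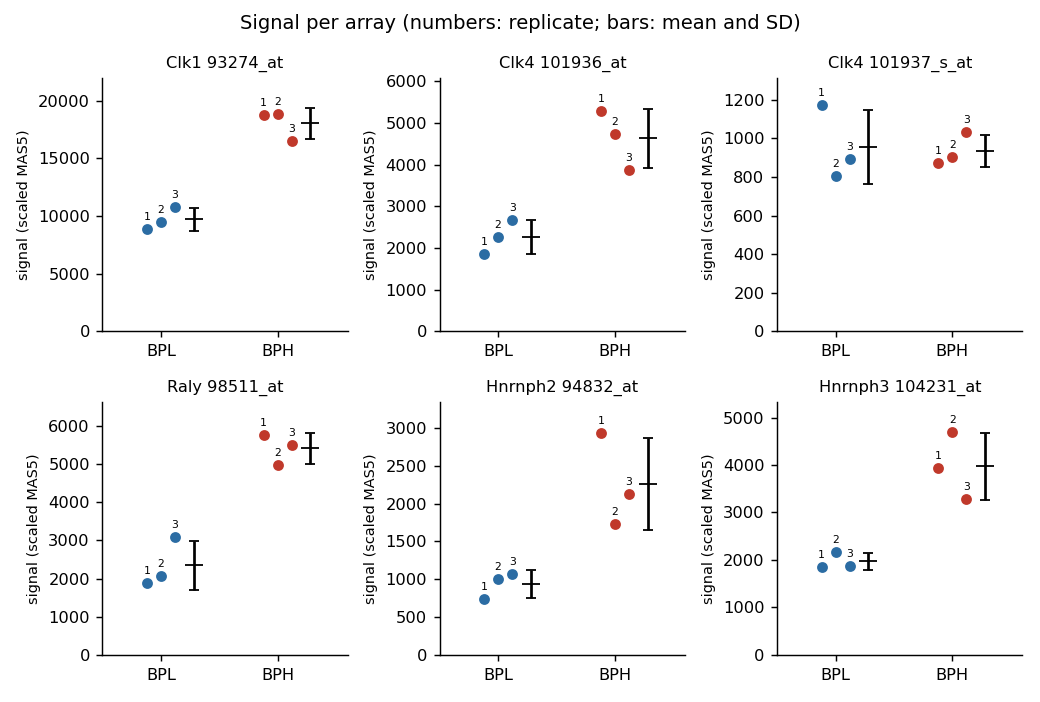
Scaled signal (vertical axes, linear, from 0) of 6 probe sets on each array, with BPL in blue, BPH in red, replicate numbers above the points, and the mean and SD over 3 arrays as bars. The arrays of both strains do not overlap in 5 panels, while the second probe set of Clk4 (101937_s_at) is at 956 in BPL and 937 in BPH on average.

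Clk1 and Clk4, closely related kinases of SR proteins, were higher in BPH. In order of replicate number, the Clk1 signals were 8891, 9451 and 10816 for BPL and 18785, 18890 and 16479 for BPH, and later signals follow the same order. The lowest BPH array was well above the highest BPL array, and the log2 difference was 0.88 ± 0.15 (limma adjusted p = 0.020). Probe set 101936_at of Clk4 had signals of 1855, 2256 and 2670 in BPL and of 5285, 4728 and 3874 in BPH. Its groups did not overlap either, and it rose by 0.97 ± 0.19 (limma adjusted p = 0.027).

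The second probe set of Clk4, 101937_s_at, did not follow the first. It had signals of 1171, 804 and 892 in BPL and of 873, 906 and 1031 in BPH, with the highest and the lowest array both in BPL. The difference was -0.01 ± 0.17 (limma adjusted p = 0.97), with a 95% interval from -0.40 to 0.37. On each array the log2 ratio of the first to the second probe set was 0.58, 1.29 and 1.39 in BPL and 2.35, 2.15 and 1.72 in BPH. The ratio was thus higher on all 3 BPH arrays (exact permutation, 2-sided, p = 0.1 and adjusted p = 0.1 over 4 ratios, which is the lowest p this design can reach). In Affymetrix names the ending _s_at marks probes shared by more than 1 transcript, so both probe sets need not report the same forms, and this pair was singled out after its values were seen.

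Clk2 and Clk3 did not pass the test. Clk3 had signals of 2210, 2449 and 2731 in BPL and of 2990, 3125 and 3033 in BPH. Its groups did not overlap, but the difference of 0.29 ± 0.15 missed the threshold (limma adjusted p = 0.30, 95% interval -0.05 to 0.63). Clk2 had signals of 2324, 2752 and 3873 in BPL and of 3675, 3825 and 3893 in BPH. BPL replicate 3 lay among the BPH arrays, and the difference was 0.36 ± 0.20 (limma adjusted p = 0.34, 95% interval -0.09 to 0.81). Whether Clk1 and Clk4 differed between strains by more than Clk2 and Clk3 was not tested.

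The 20 tested hnRNP probe sets, for 17 genes, had the highest median of the 5 families, at 0.44. In this ranking the Clk median of 0.36 includes the second Clk4 probe set. Without that probe set the Clk median was above 0.44, so the order of these families depends on it. Of the 20 hnRNP probe sets 3 were called higher, against 3.18% of all tested probe sets, and 0 lower. At an unadjusted p under 0.05, 11 (55%) were higher, against 14.2% of all tested probe sets. Groups did not overlap, with BPH higher, for 10 (50%), against 19.7% of all. Raly, an RNA-binding protein related to hnRNP C, had signals of 1879, 2066 and 3086 in BPL and of 5766, 4970 and 5498 in BPH. The groups lay far apart, and Raly rose by 1.17 ± 0.20 (limma adjusted p = 0.018). Hnrnpc itself, which binds uridine tracts near splice sites, had 1220, 1631 and 1767 in BPL and 2963, 2617 and 2541 in BPH. Its groups did not overlap, and its difference of 0.75 ± 0.17 was just beyond the threshold (limma adjusted p = 0.052).

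Members of the hnRNP H group, which bind runs of guanines, were also among the highest differences. Hnrnph2 had signals of 734, 1004 and 1073 in BPL and of 2927, 1725 and 2121 in BPH. The BPH arrays varied more than the BPL arrays but stayed above them, and Hnrnph2 rose by 1.09 ± 0.22 (limma adjusted p = 0.030). Hnrnph3 had 1857, 2176 and 1880 in BPL and 3942, 4695 and 3276 in BPH. All BPH arrays were above all BPL arrays, and Hnrnph3 rose by 0.93 ± 0.17 (limma adjusted p = 0.025). Hnrnph1, another gene of the group, had 10898, 13319 and 14486 in BPL and 17738, 18074 and 17418 in BPH. Here too the groups did not overlap, but the difference of 0.46 ± 0.16 was not called (limma adjusted p = 0.16).

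The promoters of the called genes are shown as a description. These genes were picked because each was called higher, and regulation in common was not tested. RefSeq windows of assembly GRCm38.p6, from 250 bases before to 50 after the gene start, were held for 40 of the 46 member genes and for 4 of the 5 called ones. Clk1 had no entry. Each window was searched on both strands for the heat shock element (3 inverted GAA units in a row, each 2 free bases apart), the AP-1 site (TGANTCA) and the cAMP response element (TGACGTCA), where N is any base and no motif lies within another. Capitals mark a match. Snrpg and Hnrnpa2b1 are added as examples of other members that hold one, picked with the results known. Both had larger differences than Hnrnpa1, Snrpc and Sf3b2, which also hold a match and are not printed.
Clk4, chr11:51262864-51263163, plus strand: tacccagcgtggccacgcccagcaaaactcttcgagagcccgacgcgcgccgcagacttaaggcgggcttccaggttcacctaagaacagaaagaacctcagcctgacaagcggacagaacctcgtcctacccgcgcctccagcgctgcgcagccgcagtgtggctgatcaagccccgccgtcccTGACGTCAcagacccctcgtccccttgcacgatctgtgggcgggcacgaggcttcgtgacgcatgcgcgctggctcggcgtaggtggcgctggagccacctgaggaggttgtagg
Raly, chr2:154790860-154791159, plus strand: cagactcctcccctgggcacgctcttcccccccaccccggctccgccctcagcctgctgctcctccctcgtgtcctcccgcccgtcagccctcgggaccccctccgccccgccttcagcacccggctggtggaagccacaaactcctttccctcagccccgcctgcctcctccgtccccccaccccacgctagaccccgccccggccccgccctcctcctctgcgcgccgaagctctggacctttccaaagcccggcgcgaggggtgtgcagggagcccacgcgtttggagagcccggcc
Hnrnph2, chrX:134600929-134601228, plus strand: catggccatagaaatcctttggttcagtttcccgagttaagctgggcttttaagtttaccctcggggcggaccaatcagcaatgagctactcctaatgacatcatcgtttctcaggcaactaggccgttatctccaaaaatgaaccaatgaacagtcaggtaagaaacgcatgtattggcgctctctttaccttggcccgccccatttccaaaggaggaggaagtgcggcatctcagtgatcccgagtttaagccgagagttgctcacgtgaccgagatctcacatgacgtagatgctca
Hnrnph3, chr10:63023800-63024099, minus strand: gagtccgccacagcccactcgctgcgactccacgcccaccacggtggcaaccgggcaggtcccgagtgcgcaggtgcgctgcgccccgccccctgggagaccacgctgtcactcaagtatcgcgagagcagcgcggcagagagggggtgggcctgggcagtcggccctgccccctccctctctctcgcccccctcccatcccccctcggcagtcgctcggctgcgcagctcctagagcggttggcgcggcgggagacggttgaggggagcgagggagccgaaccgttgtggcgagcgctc
Snrpg, chr6:86371290-86371589, plus strand: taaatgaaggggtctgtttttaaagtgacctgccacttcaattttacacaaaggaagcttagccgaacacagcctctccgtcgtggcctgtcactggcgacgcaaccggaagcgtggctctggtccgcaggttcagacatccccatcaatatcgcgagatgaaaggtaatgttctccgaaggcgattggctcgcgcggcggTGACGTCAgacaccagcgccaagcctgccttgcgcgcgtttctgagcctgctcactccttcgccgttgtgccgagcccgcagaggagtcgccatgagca
Hnrnpa2b1, chr6:51469845-51470144, minus strand: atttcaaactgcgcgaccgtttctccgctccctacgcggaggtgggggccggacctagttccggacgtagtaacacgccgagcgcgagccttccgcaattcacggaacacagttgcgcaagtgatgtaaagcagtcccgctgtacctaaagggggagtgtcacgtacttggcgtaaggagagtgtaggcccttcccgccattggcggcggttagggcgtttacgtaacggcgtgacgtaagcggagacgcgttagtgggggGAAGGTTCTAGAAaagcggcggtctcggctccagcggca

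Among the 4 called genes with a window, only that of Clk4 held one of these motifs, the cAMP response element TGACGTCA. That element was in windows of 2 of the 40 member genes (5%), Clk4 and Snrpg, and of 2.03% of all 27025 genes of the table. The heat shock element was also in 2 member genes (5%), Hnrnpa2b1 and Sf3b2, against 0.662% of all genes, and the AP-1 site in 2 (5%), Hnrnpa1 and Snrpc, against 8.97%. Member windows had a median of 61% G and C, against 52.7% over all windows. A match is a description of the letters and not a bound site.

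The other hnRNP transcripts did not pass. Hnrnpa2b1, which with Hnrnpa1 antagonises SR proteins in the choice of splice sites, had 2 probe sets of nearly the same difference. The first, 93117_at, had signals of 11913, 16200 and 16189 in BPL and of 22431, 20430 and 20095 in BPH, a difference of 0.51 ± 0.17 (limma adjusted p = 0.15). Its second probe set, 93118_at, gave 0.53 ± 0.17 (limma adjusted p = 0.14), and neither overlapped between strains. Hnrnpa1 was at 0.46 ± 0.15 (limma adjusted p = 0.14), and Hnrnpu, which also binds nuclear scaffold DNA, at 0.82 ± 0.28 (limma adjusted p = 0.16). Hnrnpu had 1148, 2616 and 2391 in BPL and 4030, 3874 and 2949 in BPH, so BPL replicate 1 lay far below the other BPL arrays. The other Hnrnpu probe set, 93761_at, was too dim to be tested and averaged 391 in BPL and 308 in BPH. The probe sets of Hnrnpk, Hnrnpm, Hnrnpl, Hnrnpd and Hnrnpul2 had differences from 0.15 to 0.49, none called.

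Only 3 tested hnRNP probe sets had negative differences with the median scaling, and none was called. Hnrnpab had 3547, 4223 and 3058 in BPL and 2942, 3767 and 2883 in BPH, a difference of -0.16 ± 0.18 (limma adjusted p = 0.64). Its other probe set, 95911_at, was too dim to be tested and averaged 119 in BPL and 266 in BPH. Hnrnpr, at -0.13 ± 0.25 (limma adjusted p = 0.80), overlapped widely, with 2208, 3258 and 3800 in BPL and 3629, 2122 and 2666 in BPH. The probe sets of Hnrnpdl differed in sign, at 0.20 ± 0.16 for 96083_s_at and -0.13 ± 0.18 for 96084_at, neither called. Hnrnpll, a regulator of splicing in lymphocytes, was nearest to 0 in this family, at 0.02 ± 0.14 (95% interval -0.31 to 0.35).

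**Figure D2:**
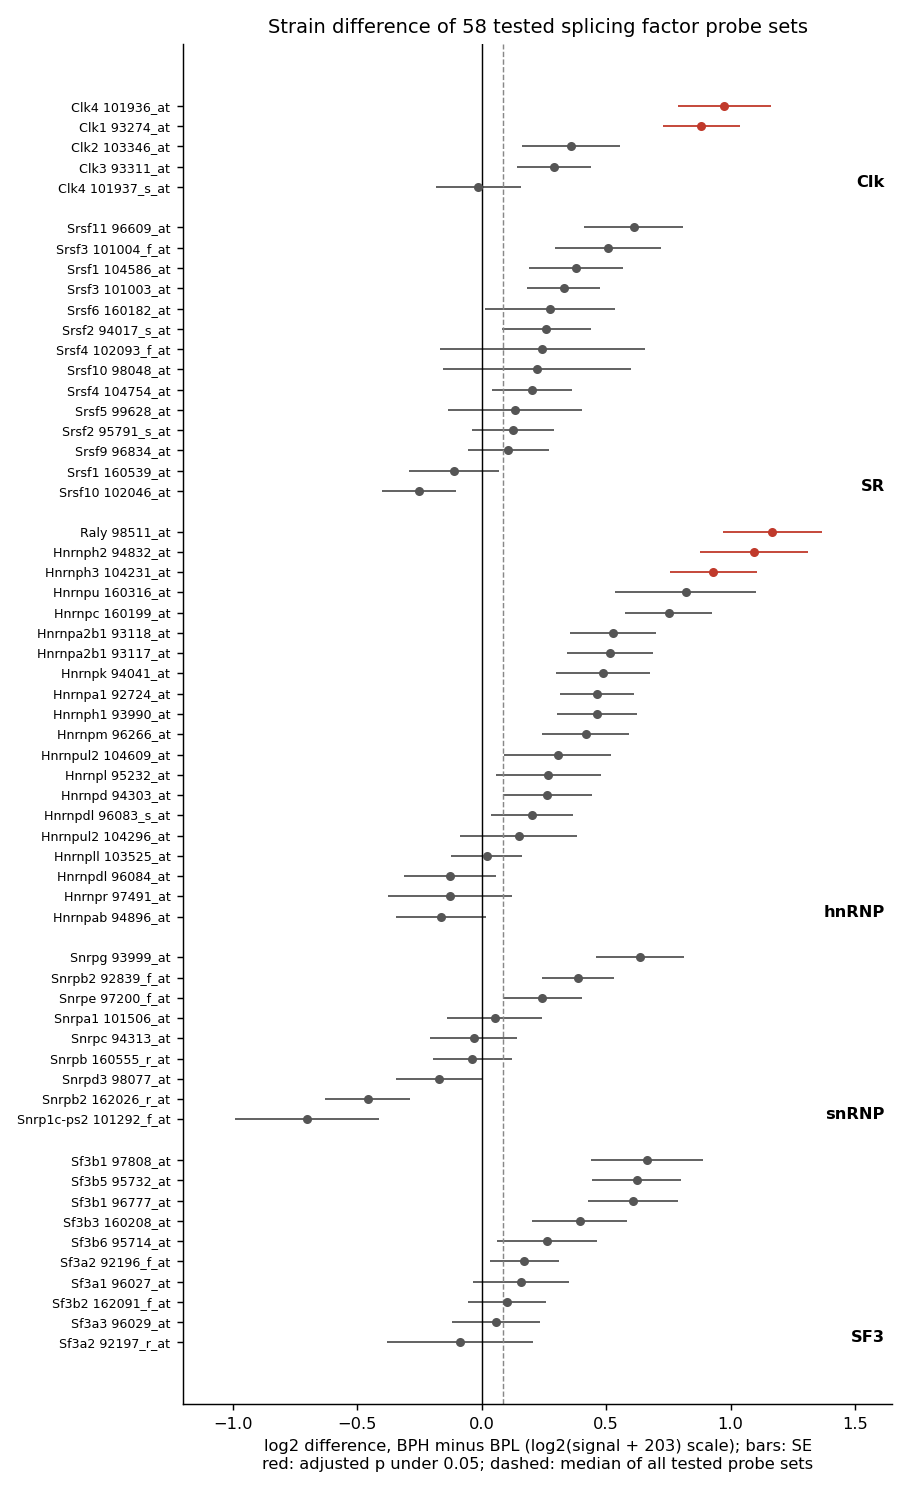
Log2 difference (horizontal axis, BPH minus BPL, on the log2(signal + 203) scale) of the 58 tested member probe sets, grouped by family and ordered by size, with SE bars. The 5 red points are the called probe sets, and the dashed line at 0.08 is the median of all tested probe sets.

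The transcripts of SR proteins, the substrates of the Clk kinases, had no call by limma, where 3.18% of all tested probe sets were called higher. Of 14 tested probe sets for 9 genes 12 were positive (85.7%, against 60.5% of all tested probe sets), and the median was 0.23. At an unadjusted p under 0.05, 2 (14.3%) were higher and 0 lower. Of all tested probe sets 14.2% were higher and 6.4% lower at that threshold, so the share of higher SR probe sets was near that of the table. Srsf11, an SR-related factor, had signals of 5245, 5914 and 7737 in BPL and of 11521, 9053 and 8475 in BPH. Its groups did not overlap, and its difference of 0.61 ± 0.20 was the largest of the family (limma adjusted p = 0.14). Srsf3, a small SR protein that also acts in mRNA export, had 988, 1017 and 1031 in BPL and 1417, 1368 and 1193 in BPH by probe set 101003_at. These groups did not overlap, at 0.33 ± 0.14 (limma adjusted p = 0.25), while the second probe set, 101004_f_at, overlapped, at 0.51 ± 0.21 (limma adjusted p = 0.23).

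Srsf10, an SR protein that represses splicing when it is dephosphorylated, was the one SR gene with a probe set whose BPH arrays all lay below the BPL arrays. Probe set 102046_at had 2117, 1856 and 1915 in BPL and 1537, 1534 and 1776 in BPH, a difference of -0.25 ± 0.15 that was not called (limma adjusted p = 0.36). The other Srsf10 probe set, 98048_at, ranged from 447 to 1467 and had a difference of 0.22 ± 0.38. Srsf1, the founding SR protein, also had differences of both signs, at 0.38 ± 0.19 for 104586_at and -0.11 ± 0.18 for 160539_at, neither called.

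Srsf2, a core SR protein of nuclear speckles, had 17998, 25240 and 25563 in BPL and 27695, 27535 and 26271 in BPH by 94017_s_at. The difference was 0.26 ± 0.18 (limma adjusted p = 0.44), and BPL replicate 1 stood well below the other 5 arrays. In its second probe set, 95791_s_at, BPL replicate 1 was instead the highest array, with 7675, 6134 and 5919 in BPL and 7205, 7669 and 6597 in BPH, a difference of 0.13 ± 0.16 that was not called. In Srsf5, BPL replicate 1 was the lowest array, with 7113, 12107 and 14831 in BPL and 13405, 12824 and 9901 in BPH, and a difference of 0.13 ± 0.27 (limma adjusted p = 0.81). It was -0.16 without BPL replicate 1 and -0.01 after quantile normalization. Srsf4, Srsf6 and Srsf9 had differences between 0.11 and 0.27, none called.

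The snRNP proteins were the only family with a median below 0, at -0.03 (-0.11 to 0.05 when 1 array was left out), and 4 of its 9 tested probe sets were positive. Limma called 0 of them. At an unadjusted p under 0.05, 2 (22.2%) were higher and 2 lower, against 14.2% and 6.4% of all tested probe sets. Snrpg, a subunit of the Sm ring that encloses the snRNA, had 6229, 7457 and 9140 in BPL and 12226, 12013 and 11160 in BPH. Its groups did not overlap, and the difference was 0.64 ± 0.18 (limma adjusted p = 0.092). The Sm subunits Snrpe, at 0.24 ± 0.16, Snrpb, at -0.04 ± 0.16, and Snrpd3, at -0.17 ± 0.17, were not called. Snrpb had 40397, 45502 and 37851 in BPL and 39700, 44872 and 36094 in BPH, so the arrays of both strains covered the same range. Snrpc of the U1 snRNP was at -0.03 ± 0.17 and Snrpa1 of the U2 snRNP at 0.05 ± 0.19.

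Snrpb2, a protein of the U2 snRNP, had probe sets that went opposite ways. Probe set 92839_f_at had 614, 634 and 616 in BPL and 936, 773 and 924 in BPH, a difference of 0.39 ± 0.15 (limma adjusted p = 0.19). Probe set 162026_r_at had 2300, 2093 and 2056 in BPL and 1598, 1761 and 1212 in BPH, a difference of -0.46 ± 0.17 (limma adjusted p = 0.19). Neither overlapped between strains and neither was called. The log2 ratio of the first to the second averaged -1.51 ± 0.09 over the BPL arrays and -0.67 ± 0.34 over the BPH arrays (SD, n = 3), and was higher in every BPH array (exact permutation, 2-sided, p = 0.1 and adjusted p = 0.1 over 4 ratios, again the lowest possible). This pair too was singled out after its values were seen. In Affymetrix names _f_at marks probes that may bind relatives of a gene family and _r_at probe sets that met fewer design rules.

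The most negative difference of all members belonged to Snrp1c-ps2, a pseudogene that the symbol rule takes in. Its probe set had 2224 and 2188 in BPL replicates 1 and 2, but 953 in BPL replicate 3, among the BPH values of 806, 1123 and 965. The difference was -0.70 ± 0.29 (limma adjusted p = 0.22), and it was 0.005 without BPL replicates 1 and 2. Those were also the arrays with the highest skeletal muscle signals, whose part in the result was not tested. Without BPL replicate 3 this probe set was the 1 member called lower.

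**Figure D3:**
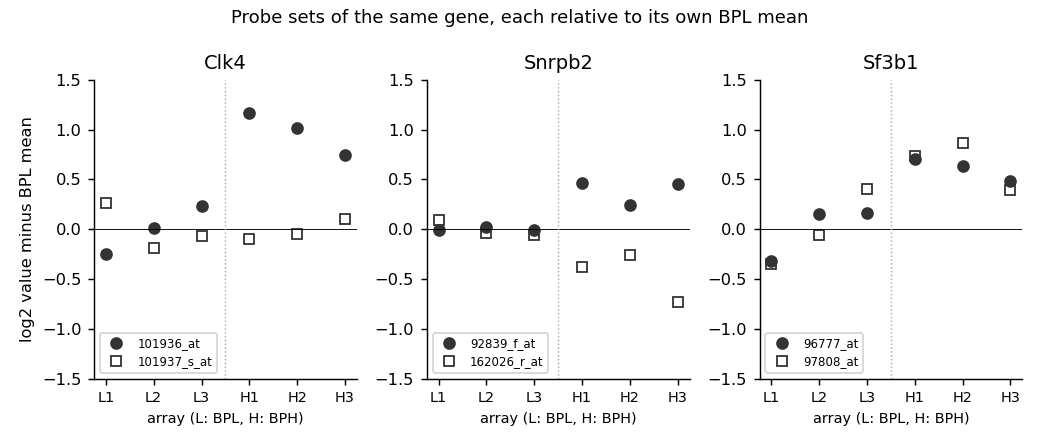
Log2 value of 2 probe sets per gene on each array (vertical axis), each minus its own mean over the BPL arrays, for Clk4, Snrpb2 and Sf3b1. The probe sets of Clk4 and of Snrpb2 part on the BPH arrays, while those of Sf3b1 stay together.

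Among SF3 transcripts 9 of 10 tested probe sets were positive and the median was 0.22, with 0 calls by limma. At an unadjusted p under 0.05, 3 (30%) were higher and 0 lower, against 14.2% and 6.4% of all tested probe sets. Sf3b1, the largest subunit of SF3B and the one that encloses the branch site, had 2 probe sets that gave like differences. Probe set 96777_at had 2620, 3715 and 3719 in BPL and 5543, 5234 and 4713 in BPH, a difference of 0.61 ± 0.18 (limma adjusted p = 0.11). Probe set 97808_at had 4806, 5949 and 8247 in BPL and 10416, 11444 and 8183 in BPH, a difference of 0.66 ± 0.23 (limma adjusted p = 0.15). The first did not overlap between strains, and in the second BPL replicate 3 reached the lowest BPH array.

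Sf3b5, a small SF3B subunit, had 4225, 5458 and 6045 in BPL and 8356, 8685 and 7301 in BPH. Its groups did not overlap, and its difference was 0.62 ± 0.18 (limma adjusted p = 0.1). Sf3b3, at 0.39 ± 0.19, Sf3b6, which touches the branch point, at 0.26 ± 0.20, and Sf3b2, at 0.10 ± 0.16, were not called. Of the SF3A subunits, Sf3a1 was at 0.16 ± 0.19 and Sf3a3 at 0.06 ± 0.18, and the 2 probe sets of Sf3a2 were at 0.17 ± 0.14 and -0.09 ± 0.29, none called.

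**Figure D4:**
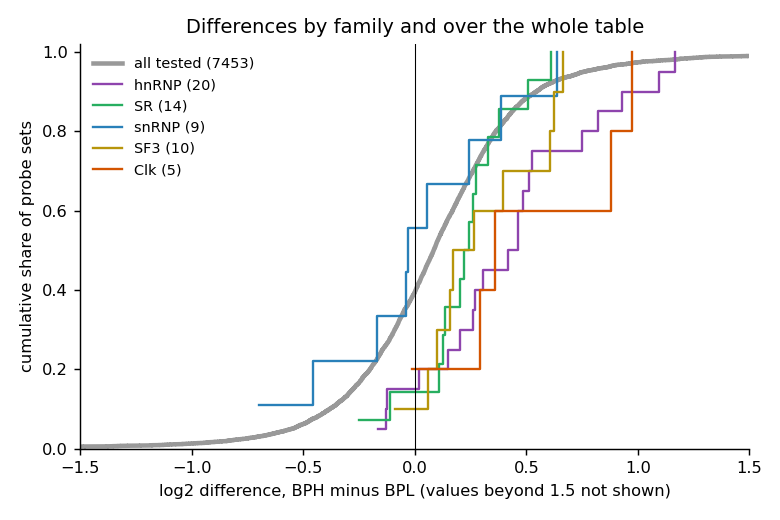
Cumulative share of probe sets (vertical axis) by log2 difference (horizontal axis, BPH minus BPL) for each family and for all tested probe sets. The hnRNP, SR, SF3 and Clk curves lie mostly to the right of the grey curve of all tested probe sets, and the snRNP curve runs on both sides of it, with family medians from -0.03 (snRNP) to 0.44 (hnRNP).

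The families were not even across the arrays of a strain. For each probe set the mean over 6 arrays was subtracted, and the median over the 58 members was then -0.34, -0.13 and -0.01 on the 3 BPL arrays, and 0.20, 0.17 and 0.09 on the 3 BPH arrays. The same medians over all tested probe sets were -0.11, -0.03 and 0.01, and 0.12, 0.06 and -0.01. BPL replicate 1 thus stood lowest and BPL replicate 3 nearest to the BPH arrays. BPL replicate 1 was the lowest of the 6 arrays for 37 members (63.8%), against 37.1% of all tested probe sets. By family this array was lowest for 4 of 5 Clk, 12 of 20 hnRNP, 8 of 14 SR, 8 of 10 SF3 and 5 of 9 snRNP probe sets.

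**Figure D5:**
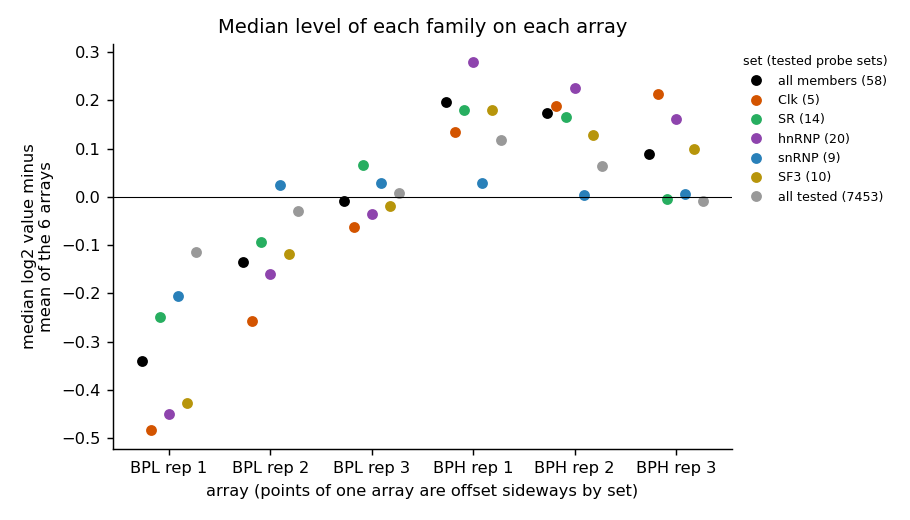
Median log2 value of each family on each array (vertical axis), after subtracting each probe set's mean over the 6 arrays, with all tested probe sets in grey. BPL replicate 1 is lowest in every set shown, at -0.34 over all members, and the snRNP proteins vary least among the other 5 arrays.

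Differences also varied with the kind of probe set. Of the 44 tested members with the plain ending _at, 5 were called higher and the median was 0.32, and of the 14 with an ending that marks shared or weaker probes 0 were called by limma (2 higher and 2 lower at an unadjusted p under 0.05), with a median of 0.15. Over all tested probe sets the same medians were 0.09 and 0.03, and 3.44% and 2.11% were called higher. For 14 probe sets, 0 calls is near that share. Of the 9 tested snRNP probe sets 5 carry such an ending, as given with each name in the plot of differences.

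Other genes of the splicing machinery had medians above that of all tested probe sets as well. For the counts that follow, 14.2% of all tested probe sets were higher and 6.4% lower at an unadjusted p under 0.05. Of 50 listed core spliceosome proteins and helicases 35 genes were tested in 40 probe sets, with 0 called by limma, 11 higher and 0 lower at an unadjusted p under 0.05, and a median of 0.21. Of 20 listed SR-related proteins and SR kinases 14 were tested in 15 probe sets, with 0 called by limma, 5 higher and 0 lower at an unadjusted p under 0.05, and a median of 0.27. Of 38 other RNA-binding regulators of splicing 24 were tested in 32 probe sets, with 1 called higher (3.18% of all tested probe sets were), 0 lower, 7 higher and 1 lower at an unadjusted p under 0.05, and a median of 0.27. The lower one was probe set 161758_r_at of the splicing regulator Rbfox2, at -1.37 ± 0.47 (limma adjusted p = 0.15). It had 8001, 3580 and 3508 in BPL and 3431, 1623 and 798 in BPH. All BPH arrays were below all BPL arrays, but the groups nearly met, and BPL replicate 1 lay far above the other arrays. The called gene was Ybx1, a cold shock domain protein that binds RNA and DNA. It had 29164, 28554 and 30461 in BPL and 68349, 72975 and 49081 in BPH, and rose by 1.09 ± 0.18 (limma adjusted p = 0.018).

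Of all tested probe sets 306 (4.11%) were called, 237 higher and 69 lower, and these were 195 and 99 with the authors' scaling, which left the same 5 members called. Cortex markers summed to signals of 473590 to 624560 in BPL and 615010 to 709610 in BPH, with 1 of 7 genes called higher. Medulla markers summed to 161270 to 260450 and 265360 to 345720, with 2 of 6 medulla genes called higher. Skeletal muscle markers summed to 27456 to 386240 in BPL and 5201 to 5635 in BPH, with 7 of 9 tested genes called lower. Muscle markers averaged 13.2, 14.3 and 10.8 on the log2 scale across BPL replicates 1 to 3. Member medians on these arrays were -0.34, -0.13 and -0.01, against -0.11, -0.03 and 0.01 over all tested probe sets. Of the BPL arrays, replicate 3 had the lowest muscle signal and the highest member median. Muscle signal was highest on BPL replicate 2, and the member median was lowest on BPL replicate 1. Immediate early genes (12 of 12 called higher) summed to 41578 to 52789 in BPL and 199740 to 271140 in BPH, and heat shock genes (7 of 8 called higher) to 132700 to 175090 and 308480 to 536890. Fat markers had 0 of 4 genes called by limma (0 probe sets higher and 3 lower at an unadjusted p under 0.05) and summed to 164040 to 186990 in BPL and 115360 to 177660 in BPH. Of 3 endothelial and 2 blood and immune genes tested 0 were called by limma (1 probe set higher at an unadjusted p under 0.05). As a sign of RNA quality, the 3'/5' log2 ratio of control probe sets was 0.17 higher in BPH for Gapdh and 0.23 higher for Actb (exact permutation, 2-sided, p = 0.1 each, the lowest possible, adjusted p = 0.1). The part of these markers and ratios in the splicing factor differences was not tested. Without BPL replicates 1 and 2, the arrays highest in muscle, only 1 BPL array was left. The member median was then 0.13, against 0.04 over all tested probe sets.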

How the data were processed

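Biotinylated cRNA from total adrenal RNA was measured on Affymetrix arrays, per the labels' protocols. The authors deposited linear intensity values, 1 for each probe set on each array, which MAS5 produced according to the submitters' processing notes. The MAS5 version and settings were not stated there, and detection calls were not used here. Array medians ran from 945 to 1144, and each array was scaled to their mean. The pseudocount of 203 is the 20th percentile of all signals. The 40% of the 12422 probe sets outside the 66 controls with the lowest mean were not tested. limma 3.58.1 in R 4.3.3 (lmFit, eBayes, 2-sided, 4 residual and 4.50 prior degrees of freedom) was fitted on all 6 arrays, adjusted over all 7453 probe sets, and tested on simulated data. The number of arrays limits the precision. Arrays were compared pairwise and shared at most 1 identical value.

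Named members were the called ones, all Clk genes, and in each family the 3 with the smallest p, the 2 largest differences each way and the 2 with the highest mean signal. Other members, and Rbfox2, are given as examples chosen after their values were seen. Members and lists were chosen with earlier results of these data known. Promoter windows come from RefSeq. The array table states no build, so coordinates are those of the promoter table only. The alternatives were other scalings, pseudocounts, filters and variance models, a replicate block, arrays left out and 1 probe set per gene.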

Additional observations from a re-analysis of the deposited data

How the results depend on the processing

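With the authors' scaling, quantile normalization, centring, the smaller pseudocount, a floor and 1 probe set per gene, the same 5 members were called. Clk1, Clk4 and Raly each kept their call in 10 of 17 alternatives, Hnrnph3 in 11 of 17 and Hnrnph2 in 8 of 16, and their differences stayed positive throughout (0.73 to 1.37 over these 5). With no filter 0 members were called by limma (19 higher at an unadjusted p under 0.05), 0 in Clk and 0 in hnRNP, and 106 probe sets of the table were higher and 21 lower. With a trended and robust variance 8 members were called higher, among them 1 snRNP (Snrpg) and 1 SF3 (Sf3b5) probe set, and the stricter filter also called 1 of each. Replicate numbers did not pair the samples (correlations of deviations for equal numbers -0.06, -0.05 and -0.18). With the replicate block 2 members were called higher, Hnrnph3 and Raly, and 0 in Clk.

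Leaving out 1 array at a time gave 81 to 283 probe sets higher and 20 to 92 lower, 0 to 6 members higher and 0 to 1 lower, 0 to 2 Clk and 0 to 4 hnRNP members higher, 0 to 1 snRNP members lower, and a Clk median of 0.22 to 0.55. Without BPL replicates 1 and 2 together, 77 probe sets were higher and 10 lower, with 0 members called, 0 in Clk and 0 in hnRNP. The medians were then 0.13 over members, 0.15 in Clk, 0.20 in hnRNP and 0.10 in SR. The Clk median was 0.62 with the stricter filter and with 1 probe set per gene, both of which leave out the second Clk4 probe set. The snRNP median was -0.14 with the authors' scaling and with quantile normalization. For other changes the cause was not tested.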
